A study of Mus musculus with 2 samples.

Results

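The 8 stretches of mouse chromatin described here are large domains in which regions marked by H3K4me1 lay close together in pre-B cells. Each is a chain of marked regions joined wherever the unmarked gap was at most 12500 bases. They were selected on covered bases, the sum of the region lengths, from the 10 domains outside chromosome Y that covered most. A domain on chromosome 9 (the most covered, 151.3 kb) and a domain on chromosome 7 (125.0 kb) were not among the 8. Together the 8 domains held 218 of the 48130 regions in the list, 0.453% of regions and 0.876% of all covered bases. Covered bases are thus what chose the domains, and number of regions and span are not independent of that choice. All of these are given as a description only. The smallest of the 8 by covered bases, on chromosome 17, held 109.5 kb, and the next domain below it, on chromosome 15, held 107.7 kb in 11 regions.

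The cells were bone marrow pre-B cells of B6 mice lacking Rag1, of both sexes and 6 to 14 weeks old, which also carried a rearranged IgM transgene. One library was made by chromatin immunoprecipitation with an antibody to H3K4me1 and 1 input library was made without antibody from the same kind of cells, so both groups share the Rag1 deletion and the transgene. Cells without Rag1 cannot rearrange their own antigen receptor genes, so light-chain rearrangement cannot take place in them, which limits them as a model of normal pre-B cells. The labels give no number of animals for either library. The H3K4me1 library held 50945360 tags and its list of regions was called against the input, which entered only through that step. With 1 library per group there is no replicate error, and no test was made. The tissue label could not be set beside marker genes, because no expression was measured.

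H3K4me1 is monomethylation of lysine 4 on histone H3, placed mainly by the methyltransferases KMT2C and KMT2D. It marks enhancers, both active and poised, and the flanks of active promoters, while the start site of an active gene usually carries trimethylation of the same lysine in its place. In developing B cells, genes that set cell identity often sit in long clusters of enhancers, and a chain of H3K4me1 regions with short interruptions is how such a cluster can appear in a list of called regions. The genes in the 8 domains were not analysed here, since the gene table at hand uses another mouse build than the mm9 positions of the list; for the same reason no sequence is shown. Left and right below mean lower and higher mm9 coordinates.

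The domains fell into 2 kinds of layout at the ends of a range, with others between. On chromosome 6 and in the distal of the 2 chromosome 8 domains, very long regions of over 40 kb held much of the covered bases. On chromosome 2, in the proximal chromosome 8 domain and on chromosome 17, the covered bases were spread over many regions, none longer than 14.1 kb. Spans ran from 186.2 to 254.1 kb and covered shares from 48.5 to 75.4%. The map of regions within the 8 domains shows these layouts on a shared scale.

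**Figure D1:**
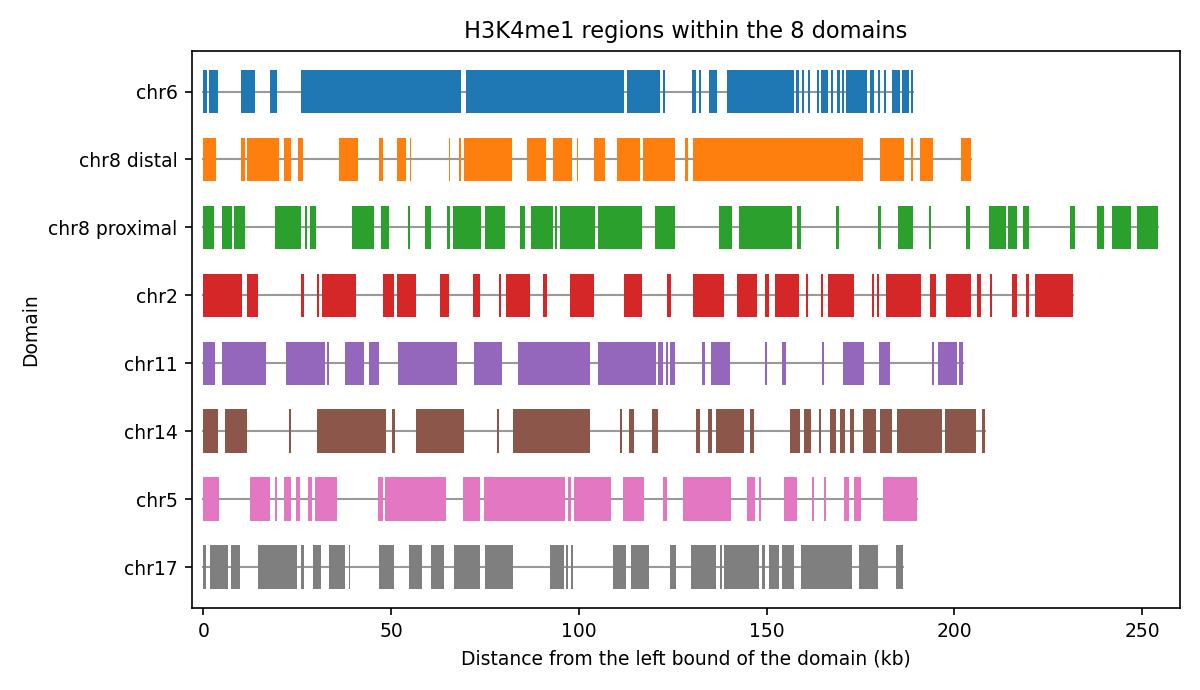
Each row is 1 domain drawn from its left bound (x axis, kb), with filled blocks for H3K4me1 regions and a thin line for the unmarked gaps. The chr6 row holds 2 adjacent blocks of 42.5 and 42.3 kb, and the chr2 row has its longest blocks, of 10.4 and 10.3 kb, at its 2 ends.

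The chromosome 6 domain (120478864 to 120667718) was the most completely covered of the 8. Its 27 regions covered 142.4 of 188.9 kb, 75.4%. Its longest region, region 5 counted from the left, ran from 120504882 to 120547410 (42.5 kb), and region 6, its second longest, from 120548712 to 120591006 (42.3 kb). A gap of 1301 bases separated them, so this pair spanned 86.1 kb and held 59.6% of the covered bases of the domain. The densest 50 kb window here was 98.6% covered. To the right the picture changed: after a region of 17.9 kb, the last 15 regions spread over 31.0 kb, 11 of them under 1000 bases long, with no gap over 2000 bases between them. Those 15 regions covered 57.1% of their stretch. The longest gap was 7312 bases (120601760 to 120609071), the shortest 515 bases (120636212 to 120636726), and 14 of the 26 gaps were under 1000 bases. In the other 7 domains 36 of 184 gaps (19.6%) were that short, beside 53.8% here. The first region measured 1012 bases and the last 501, the shortest length in the list. Outside, the next regions lay 34.4 kb to the left and 65.0 kb to the right.

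The distal chromosome 8 domain (129207073 to 129411435) held the single longest region of the 8 domains. That region, number 20 of 24, ran from 129337478 to 129382711 and measured 45.2 kb, 36.0% of the 125.8 kb covered. The second longest, from 129276372 to 129289394, was 13023 bases, so lengths dropped steeply after the first. Both lay in a block of 14 regions from 129272367 to 129401339, within which no gap exceeded 5 kb and which held 78.4% of the covered bases at a local share of 76.4%. Left of that block the longest gap, 9870 bases (129262497 to 129272366), set apart 9 smaller regions. The shortest gap was 646 bases (129218124 to 129218769). Edge regions of 3398 and 2516 bases closed the domain. Its outer gaps were short, 14.6 kb on the left and 13.9 kb on the right, and the 100 kb on either side were 27.3% covered, the highest flank value of the 8 domains. This domain therefore stood in a longer marked neighbourhood, and its bounds rest on gaps just over the limit used for joining.

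The proximal chromosome 8 domain (73177213 to 73431301) was the longest, at 254.1 kb, and the least covered, at 48.5%. It had 34 regions, the most of the 8. No region dominated: the longest, from 73319921 to 73334042, was 14.1 kb (11.5% of covered bases), and the second, from 73282375 to 73294055, was 11.7 kb. To reach 50% of the covered bases took 8 regions, the most of any of these domains. The covered bases were denser on the left, where the left-hand 50% of the span held 61.0% of them. With the span cut into 10 equal bins, coverage was 24.5 and 22.8% in bins 7 and 8, after 76.8% in bin 5. Gaps over 10 kb numbered 3, the longest of 11597 bases (73302877 to 73314473), and the shortest gap was 525 bases (73270247 to 73270771). The first region had 2911 bases and the last 5477. A gap of 15.1 kb bounded it on the left and one of 127.4 kb on the right, the widest outer gap of all 16.

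The chromosome 2 domain (169945976 to 170177675) had no region over 10.4 kb. Its 32 regions covered 118.0 of 231.7 kb, 50.9%, and the longest of them held only 8.77% of the covered bases, the lowest such share of the 8. That longest region was the first, from 169945976 to 169956325 (10350 bases), and the second longest was the last, from 170167363 to 170177675 (10313 bases). It was the only domain of the 8 whose longest region lay at an edge. Coverage in the 10 bins stayed between 42.8 and 64.9%, the narrowest range of the 8. The longest gap, 11403 bases (169960520 to 169971922), came after the second region, and the shortest, 580 bases (169976887 to 169977466), after the fourth. Wide unmarked stretches bounded it on both sides, 49.2 kb on the left and 48.6 kb on the right, and the flanking 100 kb were only 2.70% covered.

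On chromosome 11 (22654961 to 22857193) the left part was marked densely and the right part sparsely. The 23 regions covered 117.5 of 202.2 kb (58.1%), and 5 of them reached 10 kb, the most in any of these domains. The longest ran from 22738789 to 22757863 (19.1 kb) and the second longest from 22706934 to 22722583 (15.7 kb). They belonged to a block of 7 regions from 22706934 to 22780625 that was 82.3% covered. Left of the midpoint lay 63.1% of the covered bases, and bin 8 of 10 was covered to 7.76%, the lowest of all 80 bins. The median gap was 4079 bases, the widest of the 8 domains. Gaps ran from 507 bases (22775473 to 22775979) to 11319 bases (22837771 to 22849089). The first region was 3214 bases long and the last 906. The left neighbour lay 59.1 kb away, the right neighbour 14.4 kb.

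Long and very short regions alternated in the left part of the chromosome 14 domain (122270907 to 122479164). There regions of 18.2, 12.7 and 20.4 kb were each followed or preceded by a region of 626 to 924 bases. The longest was 20.4 kb (122353449 to 122373897) and the second longest 18.2 kb (122301309 to 122319538). In all, 26 regions covered 114.9 of 208.3 kb, 55.2%, and 4 regions of at least 10 kb held 55.1% of that. At the right end a block of 11 regions from 122427003 to 122479164 was closely packed, with 70.9% covered, and the last bin of the span reached 88.9%. The longest gap was 11190 bases (122282444 to 122293633) and the shortest 677 bases (122467651 to 122468327). Edge regions measured 3924 and 968 bases. Outer gaps were 41.4 kb on the left and 23.1 kb on the right.

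The chromosome 5 domain (122579120 to 122769185) was most densely marked around its middle. Its longest region, 21.5 kb from 122653819 to 122675357, and its second longest, 16011 bases from 122627599 to 122643609, lay in a block of 7 regions from 122625574 to 122696422 that was 84.8% covered and held 53.0% of the covered bases. Without the outer 20% at each side, the span was 67.4% covered, against 52.3% in the left 20% and 44.0% in the right 20%. The 24 regions covered 113.4 of 190.1 kb in all (59.7%). A gap of 10919 bases (122614655 to 122625573), the longest, lay directly left of the central block, and the shortest, 622 bases (122626977 to 122627598), lay inside it. The domain began with a region of 4104 bases and ended with one of 9114. Its neighbours lay 18.6 kb to the left and 22.7 kb to the right.

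The chromosome 17 domain (29137623 to 29323870) had the shortest span and the highest median region length, 3428 bases. Its 28 regions covered 109.5 of 186.2 kb, 58.8%. Unlike the chromosome 5 domain it was covered more in its outer 20% (66.6% on the left, 73.0% on the right) than between them (51.4%). The longest region, number 26, ran from 29296896 to 29310432 (13.5 kb) and the second longest, number 4, from 29152313 to 29162637 (10.3 kb), so both lay near an end. A run of 8 regions with every gap under 2.5 kb held 41.9 kb of marked bases from 29267477 to 29317350. The longest gap, of 10591 bases (29236011 to 29246601), fell near the centre, and the shortest, of 595 bases (29233682 to 29234276), just left of it. Its first region was only 628 bases long and its last 1888. Unmarked stretches of 32.3 kb on the left and 49.9 kb on the right bounded it.

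**Figure D2:**
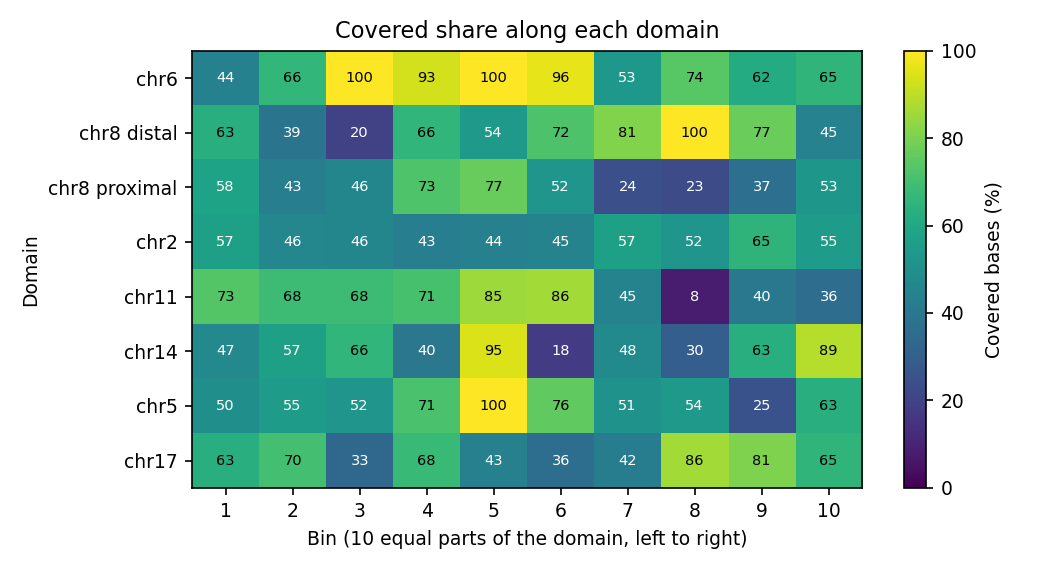
Rows are domains and columns are 10 equal bins of each span from left to right; colour and printed numbers give the percentage of bases covered by H3K4me1 regions. Of the 80 bins, 4 were covered completely and 3 below 20%.

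Covered bases were neither gathered at the middle nor at the ends of the domains as a group. In 5 of the 8 the stretch between the outer 20% was covered more than the mean of the 2 outer parts, and in 3 it was covered less. Over all 8 the middle was 58.9% covered and the outer parts 56.5%. The centre of the covered bases lay between 42.5 and 55.0% of the way from left to right. Within single domains the coverage varied much more than between these averages: 29 of the 80 bins were covered below 50%.

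The regions within the domains ranged from the shortest call in the list, 501 bases, to 45234 bases. Over all 218 the median length was 2301 bases, with 25th and 75th percentiles of 906 and 5459 bases. Domain medians ran from 1008 bases on chromosome 6, where many tiny calls lay beside the pair of very long ones, to 3428 on chromosome 17. The plot of region lengths by domain shows every value.

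**Figure D3:**
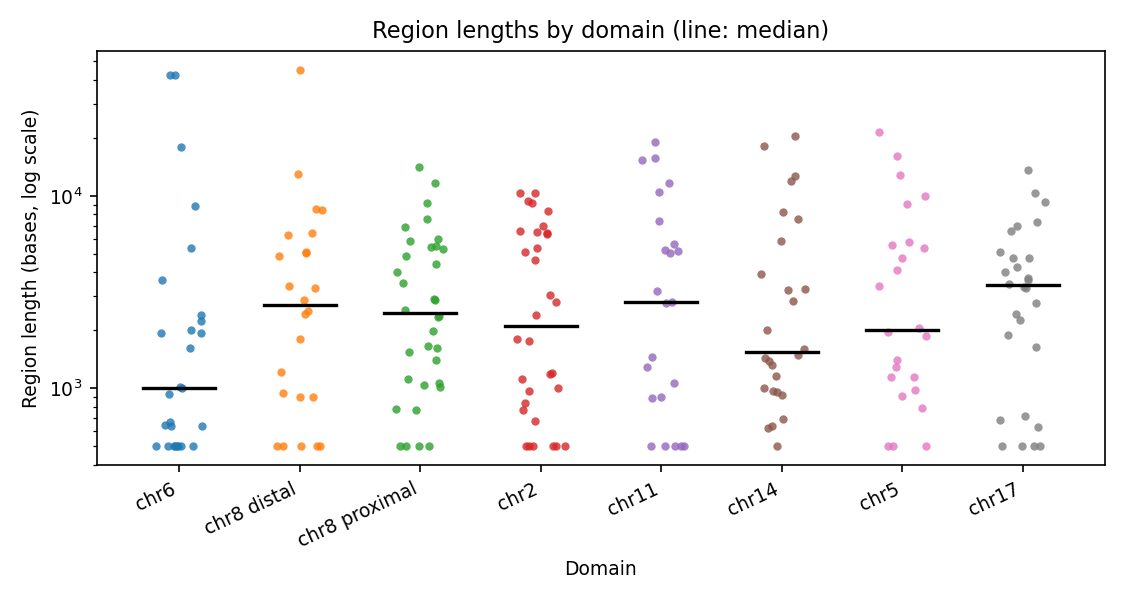
Points are the 218 regions by domain, with length in bases on a log axis and a black line at each domain's median. All 8 domains reached down to 501 bases, and only the chr6 and distal chr8 domains held regions above 40 kb.

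Regions of at least 5 kb held 74.0% of the covered bases of the 8 domains. Regions of at least 10 kb numbered 23, or 10.6% of members, where 2.15% of all 48130 regions were that long, and they held 43.2% of the covered bases. At least 5 kb was reached by 67 members (30.7%), beside 8.92% of all regions. Because covered bases chose the domains, these shares follow in part from that choice and nothing is read from them. The shortest length, 501 bases, the least that the caller can return, was found in 36 members (16.5%), beside 14.3% of all regions. Those 36 regions held 1.87% of the covered bases. Every domain had at least 1 of them: chromosome 14 had 1 and chromosome 6 had 8.

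How unevenly the bases were shared differed widely between domains. On chromosome 6, 2 regions sufficed to hold 50% of the covered bases, and in the distal chromosome 8 domain 3 did. On chromosomes 11, 14 and 5 the number was 4. On chromosomes 2 and 17 it was 7, and in the proximal chromosome 8 domain 8. Regions of at least 10 kb held from 17.5% of the covered bases on chromosome 2 to 72.2% on chromosome 6.

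**Figure D4:**
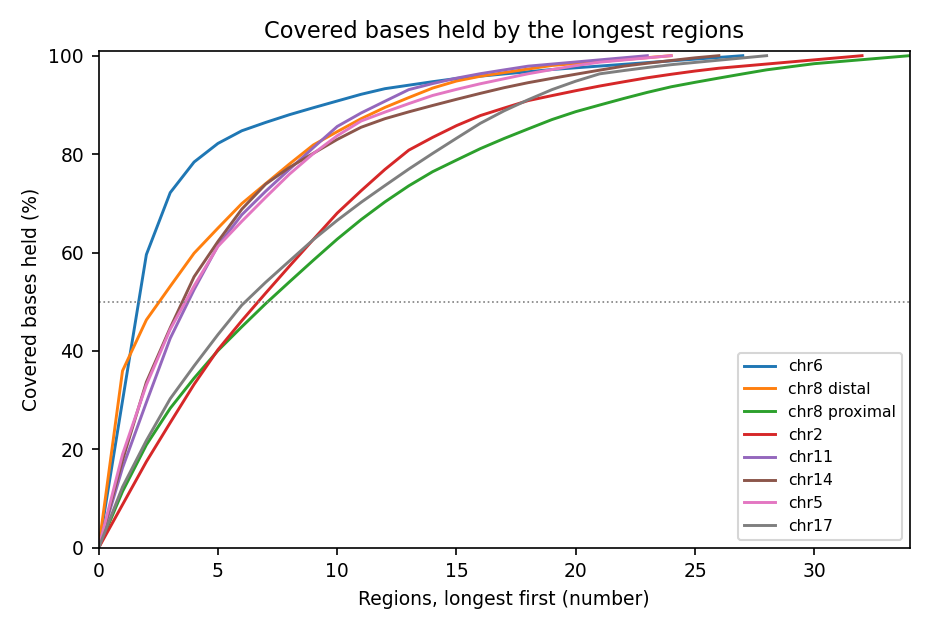
For each domain, regions are added from the longest to the shortest (x axis, number of regions) and the y axis gives the percentage of covered bases they hold; the dotted line marks 50%. The chr6 curve crosses it at 2 regions and the proximal chr8 curve at 8.

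Of the 210 pairs of adjacent regions, 143 (68.1%) differed in length at least 2-fold, beside 57.8% of 15005 pairs in the other joined domains of at least 5 regions and 63.0% of 695 pairs in those of at least 20. Lengths are more widely spread among the members, so these shares say nothing of adjacency itself. Pairs in which both regions reached 5 kb numbered 16. Of the 23 regions of at least 10 kb, 11 had a region of at least 5 kb directly beside them and 10 had a neighbour under 1000 bases. Among all members, 30.7% reached 5 kb and 29.4% were under 1000 bases. All but the edge regions have a neighbour on both sides, so nothing is read from these counts or from the pairs. Gaps beside the regions of at least 10 kb were counted per side, so a gap with such a region on both sides entered once for each. Counted so, they had a median of 1882 bases, and 11 of the 44 were under 1000 bases.

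Pooled over the 8 domains, 118 of the unmarked gaps (56.2%) were under 2500 bases. Their share was below 50% on chromosomes 2 (41.9%), 11 (45.5%) and 5 (47.8%). In the other domains it was above 50%, up to 80.8% on chromosome 6. The 210 inner gaps had a median of 2066 bases (25th and 75th percentiles 1031 and 4796). Under 1000 bases were 50 of them (23.8%), from 1000 to under 2500 bases 68 (32.4%), from 2500 to 5000 bases 42, and over 5000 bases 50 (23.8%). Only 9 exceeded 10 kb, and they lay in 6 of the 8 domains. The chromosome 6 domain and the distal chromosome 8 domain had none. The shortest gap of all members, 507 bases, was close to the 499 bases that is the shortest in the whole list. The caller used peaks of 500 bases and a minimum distance of 1000 bases between peaks, which sets this lower limit on gaps.

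**Figure D5:**
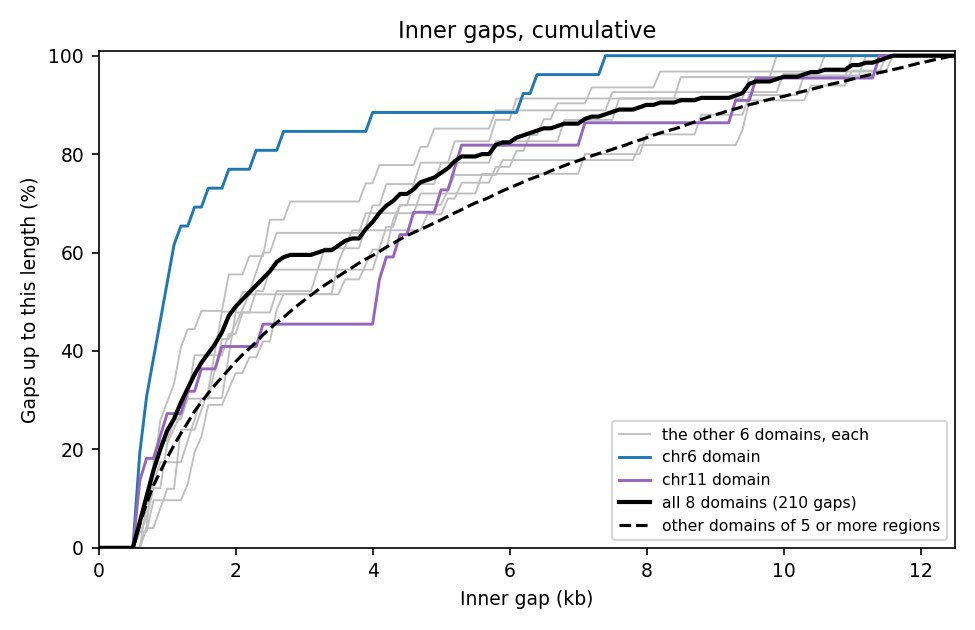
Curves give the percentage of inner gaps up to a given length (x axis, kb) for each domain, for all 8 together and, dashed, for the other joined domains of at least 5 regions. At 2.5 kb the curve of all 8 stands at 56.2% and the dashed curve at 44.5%. Up to 5 kb the chr6 curve runs highest, and the chr11 curve is the lowest of the 8 at 4 kb.

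Splitting each domain at gaps over 5 kb gave 58 blocks in all. The chromosome 6 domain fell into 4 blocks and the chromosome 17 domain into 5. Distal chromosome 8 and chromosome 5 gave 6 each, chromosome 11 gave 7 and chromosome 14 gave 8. Proximal chromosome 8 and chromosome 2 gave 11 each. They had the longest spans, 254.1 and 231.7 kb, and the most regions, 34 and 32, while their covered bases were within the range of the others. The block with most covered bases held between 32.2% (chromosome 14) and 78.4% (distal chromosome 8) of its domain's total. This count depends on the limit: 2.5 kb gave 100 blocks and 10 kb gave 17.

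Edge regions were not reduced to the shortest calls. The 16 first and last regions had a median length of 3063 bases, and the 202 regions between them 2152 bases. Among the 16, 4 reached 5 kb, 4 were under 1000 bases and 1 had the shortest length, while 35 of the 202 inner regions did. In the other joined domains of at least 5 regions, edge and inner medians were 1637 and 1795 bases, with 13.6 and 13.3% at 501 bases. In those of at least 20 regions they were 1714 and 1705 bases, with 17.2 and 14.5%. Single edges of the 8 domains spread from 501 to 10350 bases. The difference between their edge and inner medians is small beside that spread. The outer gaps ranged from 13.9 to 127.4 kb with a median of 33.3 kb. Of the 16, 7 were over 40 kb and 4 under 16 kb. Those 4 lay on both sides of the distal chromosome 8 domain, left of the proximal one and right of the chromosome 11 domain.

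Moving the joining gap showed which bounds were firm. At 15 kb in place of 12500 bases, 6 of the 8 domains kept both bounds. The distal chromosome 8 domain grew to 269.3 kb and the chromosome 11 domain to 237.2 kb. The proximal chromosome 8 domain kept its left bound only narrowly, with a left outer gap of 15.07 kb. At 25 kb, only the domains on chromosomes 6, 2 and 17 kept theirs. The distal chromosome 8 domain grew to 520.0 kb with 60 regions and the proximal one to 431.7 kb with 59. At 10 kb, 6 of the 8 came apart, the proximal chromosome 8 domain into 4 pieces and the chromosome 14 domain into 3. Only the chromosome 6 domain kept both bounds at all 3 of these settings.

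The same measures were taken in the 2291 other joined domains of at least 5 regions outside chromosome Y, which include the chromosome 9 and chromosome 7 domains. Their median covered share was 42.4% (25th and 75th percentiles 32.5 and 53.5%), beside a median of 58.4% in the 8. Inner gaps there had a median of 2976 bases, against 2066, and 33.3% of them exceeded 5000 bases, against 23.8%. Region length had a median of 1746 bases there and 2301 here. Regions under 1000 bases made up about the same part of both, 28.9 and 29.4%. The other domains are smaller, with a median of 6 regions. Against the 32 other domains of at least 20 regions, with a median covered share of 43.2% and a median gap of 2894 bases, the distance was much the same. The chromosome 9 and chromosome 7 domains, from the same top 10, had covered shares of 54.0 and 70.7% and median gaps of 2349 and 1969 bases, inside the range of the 8. A larger covered share and shorter gaps go with a choice by covered bases, so these values stand side by side with no test.

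The order of the list held further information. It ran from long to short regions only roughly (Spearman rank correlation of place with length -0.97 over 48130 regions of 1 library, a description). Cut wherever genome order broke from 1 line to the next, the 48130 lines gave 2126 stretches. Regions within a stretch stand in genome order by this definition. Lists sorted by a whole-number value, with ties in genome order, also fall into such stretches, but the order within a stretch cannot identify such a list. No such value was stated, and the tag counts per region that the header names were not used here. For each member, the share of other regions of like length (within 5%, or exactly 501 bases) that came later in the list was taken as its place among equals. Its median over the 215 members with at least 20 such regions was 53.6%, where 50% is the middle of all regions. Members of at least 10 kb had a median of 50.6% and those of 501 bases 52.9%. By this measure the members' places were near the middle of regions of their own length.

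Single domains departed from the middle in both directions. Medians were 72.4% on chromosome 6 and 62.0% on chromosome 11, and 42.9% on chromosome 5 and 45.3% on chromosome 14. The 501-base regions on chromosome 6 stood high: 7 of 8 came before more than 80% of the 501-base regions outside the 8 domains, with a median of 87.7%. In the other 7 domains 4 of 28 did, with a median of 46.5%. Of those 8 on chromosome 6, 6 belong to the run of short regions at the right end of the domain. Those at list places 41479 to 41481 stood in the same stretch, in genome order, and share the value 82.4%. The pattern on chromosome 6 and the 80% mark were chosen after the values were seen. The longest region of the list's members, in the distal chromosome 8 domain, had list place 7, and the chromosome 6 pair had places 13 and 15. By contrast, the 10350-base region that opens the chromosome 2 domain had place 2001 and came before only 8.33% of the regions of like length, and the 10313-base region that closes it before 26.7%.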

How the data were processed

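Reads were handled with Bowtie 0.12.9 and HOMER 4.7 on mouse build mm9, per the submitters' processing notes. The authors called regions with HOMER's findPeaks in histone style against input, from peaks of 500 bases stitched into longer regions, per the file headers. A peak needed 26 tags, and 4 times the input, per the file headers. The deposited score is 1 in every line and carries no measurement, so positions, lengths, gaps and the order of lines were used; the order was looked at after the list was seen. Positions are printed counting from 1. The input library's tags were not used here.

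Regions at most 12500 bases apart were joined. Domains on chromosome Y were left out of the ranking and of the comparison sets. The rest were ranked by covered bases, and all 8 members were described. Named in each are the 2 longest regions, the longest and shortest gap, the edge regions and the outer gaps. The members and measures were chosen with earlier results of these data known. Number of regions, covered bases, median and longest gap, longest region and blocks at 5 kb were checked on simulated domains. The finding of stretches in the list order was checked on a simulated list. The other measures were not checked in this way. Alternatives covered region length, joining, splitting, edges and comparison sets. Python 3.11.15, numpy 2.4.6, pandas 2.3.3, scipy 1.17.1 and matplotlib 3.10.9 were used.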

Additional observations from a re-analysis of the deposited data

How the results depend on the processing

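Membership was 218 regions by any overlap and also when more than 50% of a region had to lie inside. Using only regions of at least 1000 bases left 154 members, a covered share of 55.5% (57.9% as reported), a median length of 4018 bases (2301) and a median gap of 4095 bases (2066). Joining regions less than 2.5 kb apart gave 100 members and a covered share of 66.8%. The median length was then 7481 bases, the median gap 5125 bases, and 38.0% of members reached 10 kb (10.6%). Gaps under 2.5 kb therefore set much of the inner structure. Blocks numbered 58 at a split of 5 kb, 100 at 2.5 kb and 17 at 10 kb. Both bounds were kept by 2 domains at a joining gap of 10 kb, by 6 at 15 kb and by 3 at 25 kb. The middle exceeded the outer parts by 2.38 percentage points with outer parts of 20% each, 0.222 with 10% and 6.60 with 25%. The median covered share of the 8 exceeded that of other domains by 16.1 percentage points (at least 5 regions) and 15.2 (at least 20); the difference from the 2 other domains in the top 10 was -3.94, with the 8 lower. Leaving out each domain in turn gave covered shares of 55.7 to 59.6%, median lengths of 1994 to 2551 bases, median gaps of 1904 to 2351 bases, shares of at least 10 kb of 9.23 to 11.4% and medians of the longest region's share of 16.2 to 17.8%. Edge regions stayed longer than inner ones by median with 2 regions per edge. No paired analysis was possible because each group has 1 library and only 1 has a region list. The deposited score is 1 in every line and gives no tag count per region, so which calls lie near the calling threshold is unknown.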
